A study of Mus musculus with 17 samples.

Results

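The respiratory chain is the set of protein complexes in the inner mitochondrial membrane that passes electrons from NADH and succinate to oxygen and pumps protons for ATP synthesis. Complex I takes electrons from NADH, complex II takes them from succinate, complex III hands them from ubiquinol to cytochrome c, and complex IV passes them to oxygen. Most of their subunits are encoded in the nucleus, and several subunits of complex IV exist as isoforms that differ between tissues. The genes described here were those whose symbol starts with Nduf, Uqcr or Cox4 to Cox8, or is Sdha, Sdhb, Sdhc or Sdhd. The rule used names only, and it found 73 genes among 18193 genes with a named probe set. These were 44 genes under complex I, 4 of complex II, 8 of complex III and 17 of complex IV. The 44 included 8 assembly factors (symbols starting with Ndufaf), which help to build complex I without being part of it, and Ndufa4 with its paralogue Ndufa4l2, which are given apart because the Ndufa4 protein belongs to complex IV. Cox7b, Ndufa11 and Ndufs6 were not analysed here.

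Affymetrix arrays (17 in all) measured RNA of mouse bone marrow cells from 5 groups. Cells were stained for CD24, CD48 and Gr-1, surface proteins held by a glycosylphosphatidylinositol (GPI) anchor, and sorted into those with and without the anchor, which cells cannot make without Pig-a (gene symbol Piga). In batch 1, Pig-a knock-out mice gave 3 arrays of GPI-negative and 3 of GPI-positive cells. In batch 2, C57BL/6 recipients of Pig-a knock-out marrow gave 4 arrays of GPI-negative cells, C57BL/6 recipients of wild-type marrow gave 3 of GPI-positive cells, and untransplanted wild-type C57BL/6 mice gave 4 of GPI-positive cells. These 5 groups are called knock-out GPI-negative, knock-out GPI-positive, knock-out graft, wild-type graft and wild type. The knock-out graft recipients had received 9 Gy of whole-body irradiation, and their donor marrow had been kept with 10 nM aerolysin, a toxin that lyses GPI-bearing cells, for 30 minutes. The labels describe neither step for the wild-type graft, so donor genotype, GPI status and these steps cannot be told apart between the grafts. The sources used here give neither the ages of the mice nor the means by which Pig-a was deleted. Arrays of a group are labelled as biological replicates without animal names, and p-values then measure only how far these arrays spread.

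Levels are log2 signals on arrays centred on a common median, differences are between group means of these levels, and a gene was called when its adjusted p (limma, Benjamini-Hochberg over 14245 genes) was below 0.05. Of the 73 members, 71 passed the filter on dim probe sets. The complex IV isoforms Cox7b2 and Cox8b failed it, with levels from 0.17 to 1.09 and from 0.40 to 1.36 over the 17 arrays. Cox4i2, Cox7a1, Ndufa4l2 and Ndufb4 passed it with mean levels between the 33.1st and 43.8th percentile of all probe sets, where differences are compressed. The median SD of the members over the arrays of a group was 0.131 in knock-out GPI-negative, 0.174 in knock-out graft, 0.117 in wild-type graft and 0.125 in wild-type cells, but 0.0515 in knock-out GPI-positive cells. Those 3 arrays were unusually alike, and the knock-out comparison is therefore also given with them averaged into 1 sample.

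Piga, the targeted gene, was lower in the GPI-negative cells of both kinds. It was at 1.67, 1.92 and 1.65 in knock-out GPI-negative and at 3.70, 3.54 and 4.11 in knock-out GPI-positive cells. It was at 0.31, 0.28, 0.92 and 0.54 in the knock-out graft, against 4.02 to 4.25 in the wild-type graft and 4.07 to 4.30 in wild type. The sorted fractions also differed in cell type markers and RNA measures. All 13 tested T and NK cell markers were called higher in knock-out GPI-negative cells, with a mean level of 5.61 to 5.73 against 1.91 to 2.03, and in the knock-out graft, with 3.42 to 4.53 against 1.99 to 2.30 in the wild-type graft. Of 11 neutrophil markers, 10 were lower in knock-out GPI-negative cells (8.15 to 8.38 against 9.38 to 9.44) and 4 in the knock-out graft (8.93 to 9.35 against 9.23 to 9.43). Of 10 proliferation genes, 5 were lower in the former and 10 in the latter. The Gapdh 3′ minus 5′ signal, a measure of RNA quality and labelling, was −0.16 ± 0.13 (SD, n = 3) in knock-out GPI-negative and −1.02 ± 0.02 (n = 3) in GPI-positive cells, and the mean of the hybridisation controls was 8.23 ± 0.34 against 6.36 ± 0.23. The part of these measures in the members' differences was not tested. In such bulk samples, fewer cells of a type and less RNA per cell cannot be told apart.

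Promoters of respiratory chain genes are known for sites of nuclear respiratory factor 1 (NRF1), of ETS factors such as GABP, and of YY1, which link many of these genes to shared regulators. RefSeq sequence (GRCm38.p6) of the 250 bases upstream of the gene start was at hand for 59 of the 73 members. On either strand, the NRF1 core GCGCATGC was in 5 of the 59 windows (8.47%) against 2.56% of all 27025 genes, and the ETS core CCGGAAG was in 10 (16.9%) against 7.83%. The YY1 core AAGATGGC was in 0 of 59, against 1.83% of all genes. A match is a description of letters and not a binding site. Windows of 4 members, chosen after their values were seen, are shown because these genes carry the results below: Ndufs7 and Ndufa6 were called higher and Sdhd lower in knock-out GPI-negative cells, and Cox6a1 is the widely expressed counterpart of Cox6a2. They are written 5′ to 3′ on the gene's strand up to its start, with motif matches in capitals.
Ndufs7, chr10:80249199-80249448, plus strand: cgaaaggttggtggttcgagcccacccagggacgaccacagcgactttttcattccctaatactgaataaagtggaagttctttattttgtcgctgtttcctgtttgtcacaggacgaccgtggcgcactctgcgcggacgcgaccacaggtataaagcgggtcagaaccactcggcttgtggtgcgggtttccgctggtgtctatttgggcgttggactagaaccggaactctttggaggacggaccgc
Ndufa6, chr15:82354292-82354541, minus strand: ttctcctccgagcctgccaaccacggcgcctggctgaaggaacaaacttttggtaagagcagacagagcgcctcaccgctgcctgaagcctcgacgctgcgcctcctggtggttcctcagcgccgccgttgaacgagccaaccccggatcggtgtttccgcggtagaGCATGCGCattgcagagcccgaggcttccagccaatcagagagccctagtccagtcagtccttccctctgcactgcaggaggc
Sdhd, chr9:50603850-50604099, minus strand: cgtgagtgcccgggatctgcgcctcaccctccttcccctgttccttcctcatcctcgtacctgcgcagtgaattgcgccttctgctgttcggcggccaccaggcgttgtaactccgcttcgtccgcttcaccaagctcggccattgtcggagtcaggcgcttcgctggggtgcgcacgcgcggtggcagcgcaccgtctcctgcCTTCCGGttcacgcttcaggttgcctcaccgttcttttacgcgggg
Cox6a1, chr5:115348959-115349208, minus strand: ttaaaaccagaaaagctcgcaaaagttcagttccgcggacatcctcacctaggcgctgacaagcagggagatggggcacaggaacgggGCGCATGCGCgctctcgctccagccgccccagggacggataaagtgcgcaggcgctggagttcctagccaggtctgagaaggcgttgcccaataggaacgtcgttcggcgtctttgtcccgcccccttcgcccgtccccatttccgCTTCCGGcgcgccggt
The Ndufa6 window holds the NRF1 core 83 bases upstream of the start. The Sdhd window holds the ETS core 46 bases upstream. The Cox6a1 window holds a pair of overlapping NRF1 matches on opposite strands, 162 and 160 bases upstream, and the ETS core 16 bases upstream. The Ndufs7 window holds none of these letters. Ndufs7, with no match, and Ndufa6, with an NRF1 match, were both called higher.

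The first comparison asks how cells without the GPI anchor differ from cells with it in knock-out marrow. Most of the chain differed little between the fractions, as did most genes. Of the 71 tested members, 11 were called higher and 5 lower in GPI-negative cells, which are 15.5% and 7.04%, where 14.8% of all genes were called higher and 14.8% lower. The median difference of the members was 0.0025 on the log2 scale (−0.0057 over all genes). Of the 71 members, 64 differed by less than 0.5, as did 11184 of all 14245 genes tested. The arrays of the groups did not overlap for 31 of the 71 (43.7%), among them all 16 called, which is close to the 43.2% of all genes. Without GPI-negative replicate 2, 7 members were called higher and 3 lower, where 13.6% and 14% of all genes were. Without any 1 GPI-positive array 6 were higher and 3 or 4 lower, where 11.9% and 11.5% of all genes were. The calls of Cox6a2, Ndufs7, Ndufa5, Cox7a2l, Ndufb5, Ndufa12, Ndufc1, Sdhd and Ndufb7 held without any 1 array, and those of the other 7 did not. With the 3 knock-out GPI-positive arrays averaged into 1 sample, Cox6a2 alone was called, where 5.86% of all genes were called higher and 5.74% lower.

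**Figure D1:**
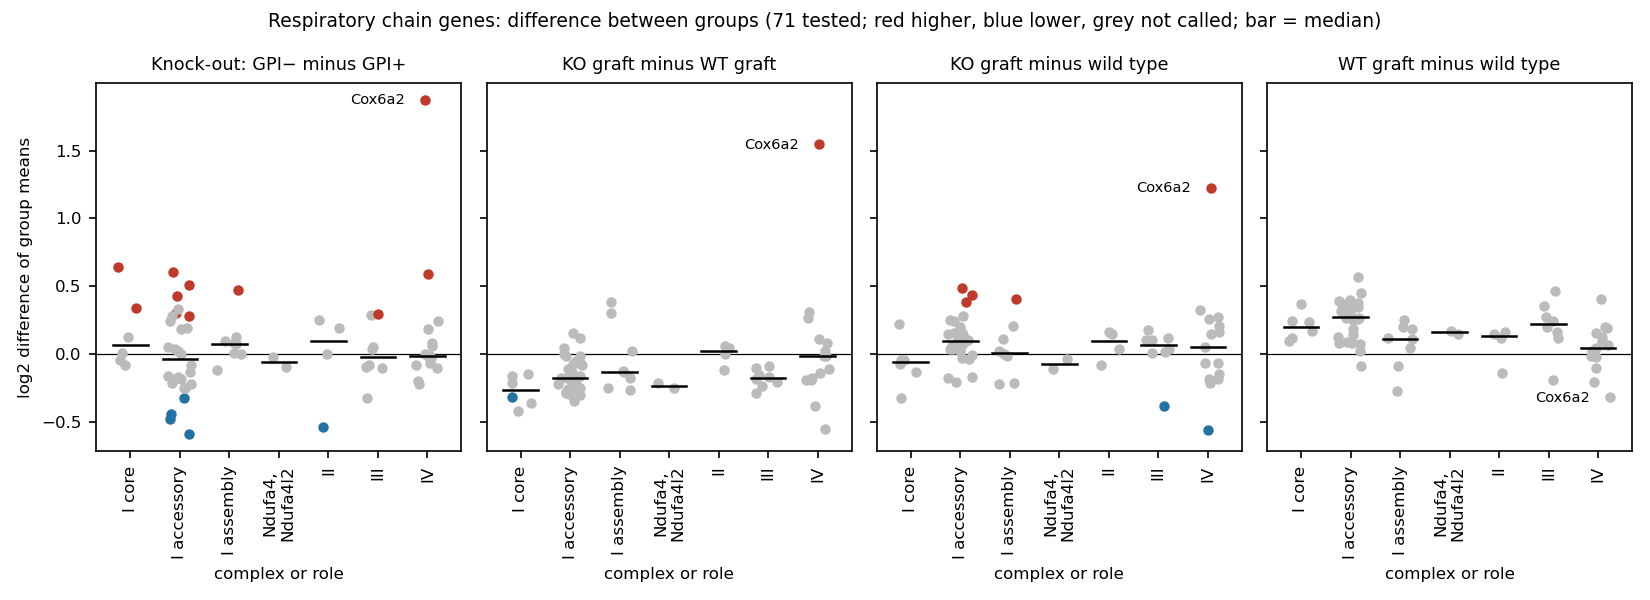
Difference of group means (log2) of each of the 71 tested members in 4 comparisons, by complex and role, with called members in red (higher) or blue (lower), others in grey, and bars at the median of each role. Cox6a2 stands above all other members in the first 3 panels, at 1.88, 1.55 and 1.23, while the other members stay within 0.65 of zero.

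Cox6a2, the heart and skeletal muscle isoform of subunit 6A of complex IV, had the largest difference of any member. Its level was 4.57, 4.19 and 4.25 in knock-out GPI-negative cells and 2.45, 2.41 and 2.51 in GPI-positive cells. The knock-out graft was at 4.81, 4.23, 3.87 and 3.82, the wild-type graft at 2.48, 2.43 and 2.999, and wild type at 2.89, 2.97, 2.89 and 3.07. Within each batch, every GPI-negative array was above every GPI-positive array. The difference was 1.88 ± 0.19 (SE, 3.67-fold, adjusted p = 2.79e-07, limma) in the knock-out, 1.55 ± 0.18 (2.92-fold, adjusted p = 1.4e-05) between the grafts and 1.23 ± 0.17 (2.34-fold, adjusted p = 4.97e-05) between knock-out graft and wild type. Its other probe set gave 1.90, 1.41 and 1.24. The last 2 comparisons share the knock-out graft arrays. Cox6a2 remained called in each under all alternatives run, and the difference between the knock-out and graft effects, 0.33 ± 0.27 (adjusted p = 0.433), did not pass the threshold. Between wild-type graft and wild type it differed by −0.32 ± 0.18 (adjusted p = 0.455).

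Cox6a1, the isoform found in most tissues, was not called in any comparison. It was at 8.65, 8.94 and 8.58 in knock-out GPI-negative and 8.91, 8.92 and 8.94 in GPI-positive cells, a difference of −0.20 ± 0.11 (adjusted p = 0.205). It ranged from 9.10 to 9.39 in the knock-out graft, from 9.31 to 9.43 in the wild-type graft and from 9.22 to 9.53 in wild type, and the graft difference was −0.11 ± 0.11 (adjusted p = 0.653). Within each batch the group means of Cox6a2 stood in the same order as those of the plasmacytoid dendritic cell markers and of the T and NK cell markers. All 5 plasmacytoid dendritic cell markers (Siglech, Tcf4, Ccr9, Bst2 and Irf8) were called higher in the knock-out, graft and knock-out graft against wild type comparisons, by a median of 2.02, 1.60 and 1.11. Their mean level was 5.44 to 5.57 in knock-out GPI-negative against 3.46 to 3.55 in GPI-positive cells, and 4.75 to 5.32 in the knock-out graft, 3.39 to 3.81 in the wild-type graft and 3.85 to 4.05 in wild type. The 13 T and NK cell markers were called higher in the same comparisons, by a median of 3.81, 1.91 and 1.502, and their mean in wild type was 2.18 to 2.67. Replicate 1 of the knock-out graft, with the highest Cox6a2 level of that group, also had its highest means of plasmacytoid dendritic (5.32), T and NK (4.53), B cell (6.10), erythroid (4.61) and proliferation (5.39) markers. The part of these cells in the Cox6a2 signal was not tested.

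**Figure D2:**
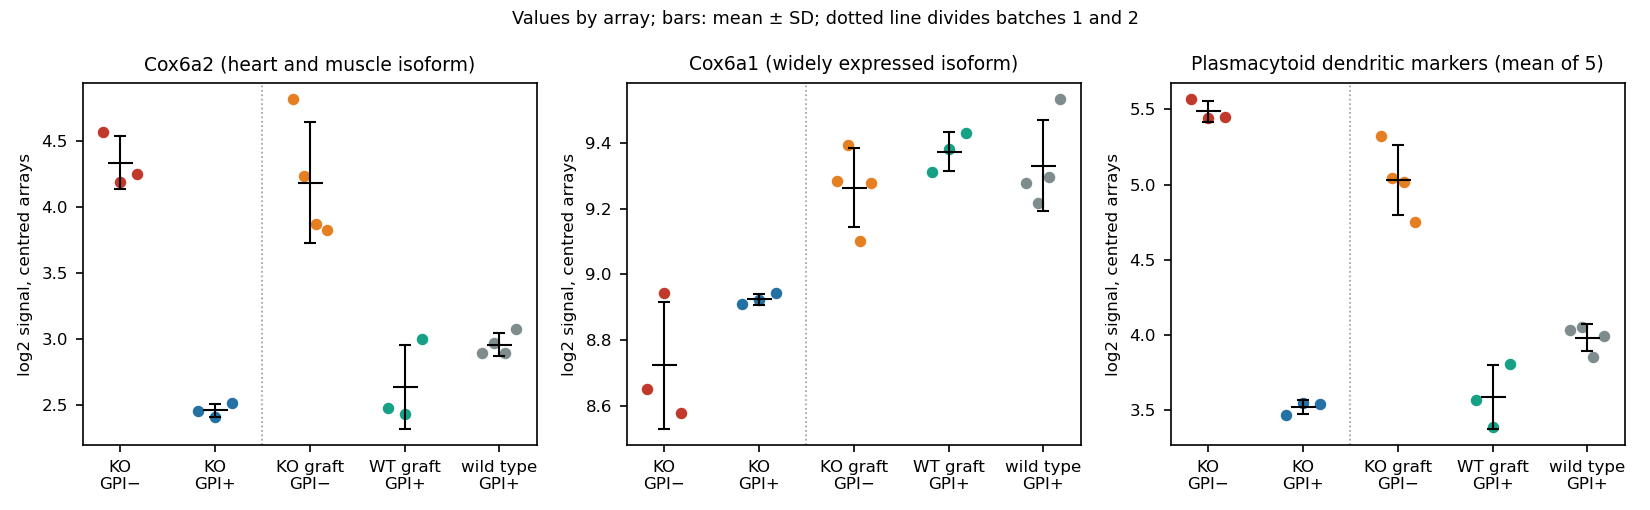
Level (log2 signal on centred arrays) of Cox6a2, of Cox6a1 and of the mean of 5 plasmacytoid dendritic cell markers on each array, with bars for the group mean and SD and a dotted line between batches 1 and 2. Cox6a2 and the markers are higher on every GPI-negative array than on any GPI-positive array of the same batch, while the Cox6a1 groups overlap within each batch.

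Among the other isoform sets of complex IV, only Cox7a2l (knock-out) and Cox6b2 (knock-out graft against wild type) were called. Cox4i1, the main form of subunit 4, differed by −0.03 in the knock-out and −0.01 between the grafts, and its hypoxia-linked counterpart Cox4i2, a dim probe set, by −0.22 and 0.26, with no call. Cox6b1 differed by 0.08 and −0.19 without a call, and its testis isoform Cox6b2 by 0.00 and −0.55 without a call. Cox6b2 was called lower in the knock-out graft than in wild type, with 4.05, 3.73, 3.17 and 4.28 against 4.31 to 4.46, a difference of −0.56 ± 0.17 (adjusted p = 0.0323, limma). Those groups did not overlap, although replicate 4 lay just below the lowest wild-type array, and the call was lost without knock-out graft replicate 2 or 3 or any 1 wild-type array (−0.35 to −0.72 over all alternatives). Cox7a1, the muscle form of subunit 7A, was dim and not called, and Cox7a2, its common form, differed by −0.38 ± 0.12 between the grafts without passing (adjusted p = 0.0502). Cox7a2l, described elsewhere as a supercomplex assembly factor, a role not measured in these mice, was called higher in knock-out GPI-negative cells. It was at 6.65, 6.47 and 6.71 against 6.13, 5.91 and 6.01. That difference was 0.59 ± 0.13 (adjusted p = 0.00197), and its 2 other probe sets gave 0.74 and 0.62. Cox8a differed by −0.07 and 0.11, and the testis isoform Cox8c by −0.11 and 0.31, in the knock-out and graft comparisons without a call. A second, dimmer probe set of Cox8c gave −0.73 and 0.33, so its probe sets did not show the same knock-out difference.

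Among the complex I core subunits, which include those that carry the electrons, Ndufs7 and Ndufs3 were called higher in knock-out GPI-negative cells. Ndufs7, which holds the last iron-sulphur cluster before ubiquinone, was at 5.93, 6.27 and 5.78 against 5.33, 5.34 and 5.38. Every GPI-negative array was above every GPI-positive array, by 0.65 ± 0.14 in the mean (1.56-fold, adjusted p = 0.00102, limma), while its second probe set gave 0.18. Ndufs3, part of the module that reduces ubiquinone, was at 5.25, 5.51 and 5.37 against 5.04, 4.99 and 5.09, a difference of 0.34 ± 0.12 (adjusted p = 0.0404). The other 4 tested core subunits did not pass. Ndufv1, which binds NADH and flavin, differed by 0.01 ± 0.16, Ndufv2 by −0.05 ± 0.13, Ndufs1 by 0.12 ± 0.10 and Ndufs8 by −0.08 ± 0.14.

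Of the 28 tested accessory subunits of complex I, which surround the core, 5 were called higher (17.9%) and 4 lower (14.3%) in knock-out GPI-negative cells, near the 14.8% of all genes in each direction. Ndufa5, a subunit of the matrix arm, was at 4.87, 5.27 and 5.19 against 4.56, 4.35 and 4.62, a difference of 0.60 ± 0.14 (adjusted p = 0.00264). Its second probe set gave 0.30. Ndufb5, of the membrane arm, was at 5.86, 5.79 and 5.68 against 5.29, 5.24 and 5.27, a difference of 0.51 ± 0.11, and its second probe set gave 0.12. Ndufa12, of the matrix arm, rose by 0.43 ± 0.11, with 0.38, 0.17 and −0.02 at its 3 other probe sets. Ndufa10 and Ndufa6 rose by 0.30 and 0.28, and the other probe set of Ndufa10, a dim one, gave −0.04. In the opposite direction, Ndufc1, of the membrane arm, was at 5.78, 5.59 and 5.44 against 6.19, 6.17 and 6.22, a difference of −0.59 ± 0.14 (adjusted p = 0.0022), with −0.40 at its second probe set. Ndufb7, which lies on the intermembrane side, was at 6.62, 6.54 and 6.58 against 7.04, 6.99 and 7.14, a difference of −0.48 ± 0.11, with −0.31 at its second probe set. Ndufb1 and Ndufa3 were lower by −0.44 and −0.32, and the other probe sets of Ndufa3 gave −0.24 and 0.22. Among the 8 assembly factors, Ndufaf4 alone was called, at 3.93, 3.95 and 3.65 against 3.32, 3.34 and 3.45 (0.47 ± 0.17, adjusted p = 0.0364, limma).

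Complex II, the succinate dehydrogenase that also serves the tricarboxylic acid cycle, had 1 call among its 4 genes. Sdhd, which anchors the enzyme in the membrane, was at 4.92, 4.70 and 4.56 in knock-out GPI-negative and 5.25, 5.24 and 5.31 in GPI-positive cells, a difference of −0.54 ± 0.12 (adjusted p = 0.00182, limma). Its second probe set gave 0.04, so the probe sets of Sdhd did not show the same difference. The other anchor, Sdhc, differed by 0.19 ± 0.10 (adjusted p = 0.18), the flavin-bearing Sdha by 0.25 ± 0.12 (adjusted p = 0.121) and the iron-sulphur subunit Sdhb by 0.00 ± 0.10. The second probe set of Sdhc went the other way, at −0.25, while other kept probe sets of Sdha gave 0.36 and 0.50. In the graft comparison all 4 lay between −0.12 and 0.06 and none was called.

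In complex III, Uqcrh, the hinge protein beside cytochrome c1, was called higher in knock-out GPI-negative cells, at 7.33, 7.36 and 7.29 against 7.06, 7.04 and 6.99 (0.29 ± 0.11, adjusted p = 0.049, limma). Its second probe set gave 0.57. Uqcrfs1, the Rieske iron-sulphur protein, differed by 0.03 ± 0.15, and the core proteins Uqcrc1 and Uqcrc2 by −0.10 ± 0.13 and 0.29 ± 0.12 (adjusted p = 0.599 and 0.088). None of these 3 was called. Uqcrq, a small subunit, missed the threshold in the opposite direction to Uqcrh, at 4.96, 4.86 and 4.96 against 5.29, 5.17 and 5.29 without overlap (−0.32 ± 0.12, adjusted p = 0.0527). Its 3 other probe sets, all dimmer, gave 0.12, −0.06 and 0.21.

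**Figure D3:**
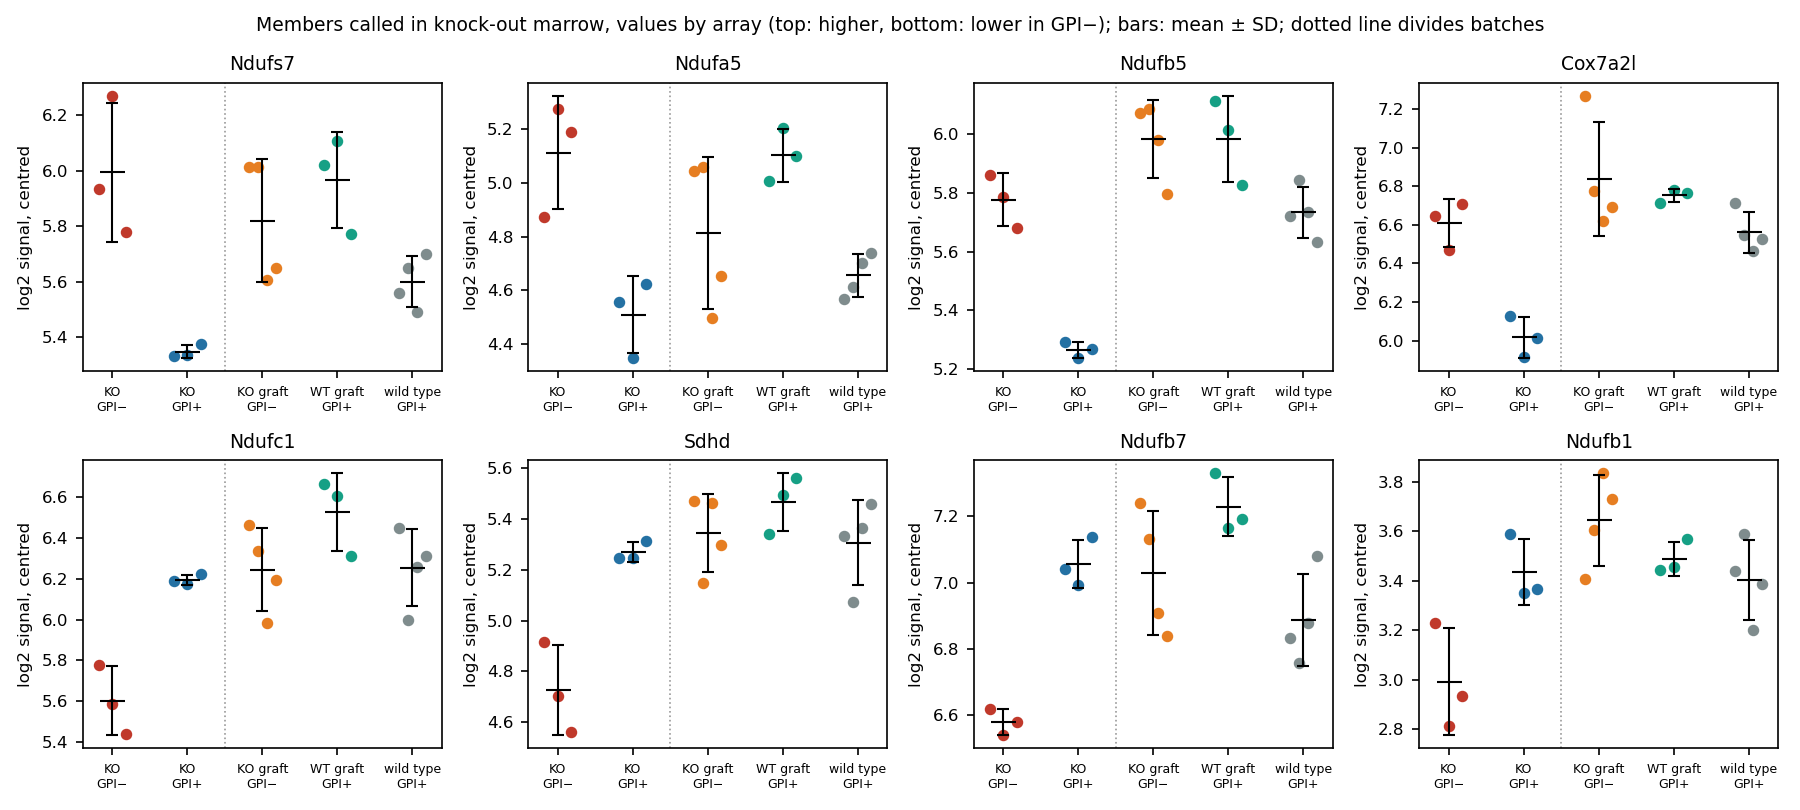
Level (log2 signal on centred arrays) on each array of 4 members called higher (top row) and 4 called lower (bottom row) in knock-out GPI-negative cells, with bars for the group mean and SD and a dotted line between batches. The knock-out groups do not overlap in any of the 8 panels, whereas the knock-out graft and wild-type graft arrays overlap in all 8.

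The second comparison asks how GPI-negative cells of the knock-out graft differ from GPI-positive cells of the wild-type graft, and it shares no array with the first. Cox6a2 was called higher and Ndufs1 lower, 1.41% of the 71 members each, where 3.95% of all genes were called higher and 3.45% lower. Yet 57 of the 71 members were below zero (80.3%, against 51.0% of all genes), and their median was −0.16 against −0.0055 over all genes. At the brightest probe set of each gene, all 6 tested complex I core subunits and all 8 complex III members were below zero, with medians of −0.27 and −0.18. Other kept probe sets were not all below zero. That of Uqcrh gave 0.37, and those of Uqcrq gave 0.34, −0.24 and −0.01. Those of Ndufs8 and Ndufv2, given below, lay on both sides of zero. Those of Ndufv1, Ndufs7, Uqcr10, Uqcrb and Uqcrc2 were all below zero. At an unadjusted p under 0.05, 15 members were lower (21.1%) and 4 higher (5.63%), against 9.65% and 10.1% of all genes. Ndufs1, the largest subunit of complex I and carrier of several iron-sulphur clusters, was at 4.60, 4.75, 4.88 and 4.82 against 5.004, 5.09 and 5.14. The groups did not overlap and differed by −0.32 ± 0.10 (1.25-fold, adjusted p = 0.0493, limma), and the call was lost under 15 of the 20 alternatives, among them the omission of any 1 array of these groups except knock-out graft replicate 3.

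The members that came next did not pass. Ndufs8, another iron-sulphur subunit, differed by −0.42 ± 0.13 (adjusted p = 0.0631, limma) and Ndufv2 by −0.36 ± 0.12 (adjusted p = 0.0774). Other kept probe sets of Ndufs8 gave −0.16, 0.50, 0.06, −0.30 and −0.21, and those of Ndufv2 gave 0.03 and −0.30. Ndufv1 differed by −0.21 ± 0.15, Ndufs3 by −0.16 ± 0.11 and Ndufs7 by −0.15 ± 0.13. Uqcrfs1, Uqcrc1 and Uqcrc2 differed by −0.21, −0.10 and −0.23. Replicate 1 of the knock-out graft stood above the other 3 arrays: relative to the wild-type mean, the median of the members was 0.236 there and 0.0596, 0.0032 and −0.0147 on replicates 2 to 4. Without it, 9 members were called lower (Cox6b2, Cox7a2, Ndufa12, Ndufab1, Ndufb2, Ndufc2, Ndufv2, Uqcr11 and Uqcrc2), where 4.71% of all genes were, and the median of the members was −0.21. Ndufs1 was not among the 9.

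The third comparison sets the knock-out graft against wild type. It called 5 members higher, 7.04% of the 71, and 2 lower, 2.82%, where 6.84% of all genes were higher and 5.55% lower, and the median of the members was 0.06 (0.02 over all genes). Besides Cox6a2, the 4 higher members were of complex I. Ndufa13, an accessory subunit also known as Grim19, was at 7.26, 7.27, 7.19 and 7.25 against 6.82, 6.74, 6.80 and 6.86, without overlap (0.44 ± 0.09, adjusted p = 0.00332, limma). Ndufaf7, an assembly factor, was at 3.45, 3.50, 3.52 and 3.64 against 3.11, 3.01, 3.25 and 3.11 (0.41 ± 0.10, adjusted p = 0.0113). Ndufa6 rose by 0.38 ± 0.09 without overlap, and Ndufa2 by 0.49 ± 0.13 with overlapping arrays. The wild-type graft also stood above wild type for these last 2 and Ndufa13, by 0.34, 0.57 and 0.32 without a call. Of the lower members, Cox6b2 is given above, and Uqcrb, a small subunit of complex III, was at 9.28, 9.15, 9.02 and 8.94 against 9.61, 9.52, 9.34 and 9.43 (−0.38 ± 0.10, adjusted p = 0.0138). Its second probe set gave −0.21. The call of Uqcrb was lost without knock-out graft replicate 4, and that of Ndufa2 without replicate 2.

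The last comparison between groups, wild-type graft against wild type, involves GPI-positive cells alone. No member was called (limma), where 0.449% of all genes were called higher and 0.393% lower, but 24 members had an unadjusted p under 0.05 and all 24 were higher (33.8%). By that measure 8.15% of all genes were higher and 6.00% lower. Of the 71 members, 61 were above zero (85.9%, against 54.8% of all genes), with a median of 0.17 against 0.02 over all genes. Of the complex I genes, all 6 tested core subunits, 27 of 28 accessory subunits and 6 of 8 assembly factors were above zero, with medians of 0.20, 0.27 and 0.11. Ndufa4 and Ndufa4l2 were both above zero, and in complex IV 10 of 15 were, with a median of 0.04. Ndufa2, a small matrix-arm subunit, came nearest to the threshold, at 6.84, 7.05 and 6.60 against 6.46, 6.03, 6.25 and 6.32 (0.57 ± 0.14, adjusted p = 0.0501), and it was called without wild-type graft replicate 3. Uqcr11 and Cox5b followed at 0.46 ± 0.12 and 0.40 ± 0.10 (adjusted p = 0.0602 and 0.0619). Other kept probe sets of Cox5b gave −0.03, −0.16, 0.46 and 0.38, so its probe sets did not all show this difference. With array weights in the fit 11 members were called higher, where 1.27% of all genes were. The Gapdh 3′ minus 5′ signal was −0.63 ± 0.22 (SD, n = 3) in the wild-type graft and −0.93 ± 0.05 (n = 4) in wild type. That of Actb was 1.26 ± 0.22 and 0.91 ± 0.10. The part of these signals in the shift was not tested. The wild-type graft arrays enter both this comparison and the one between the grafts, so a high level there raises the members here and lowers them in the other.

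**Figure D4:**
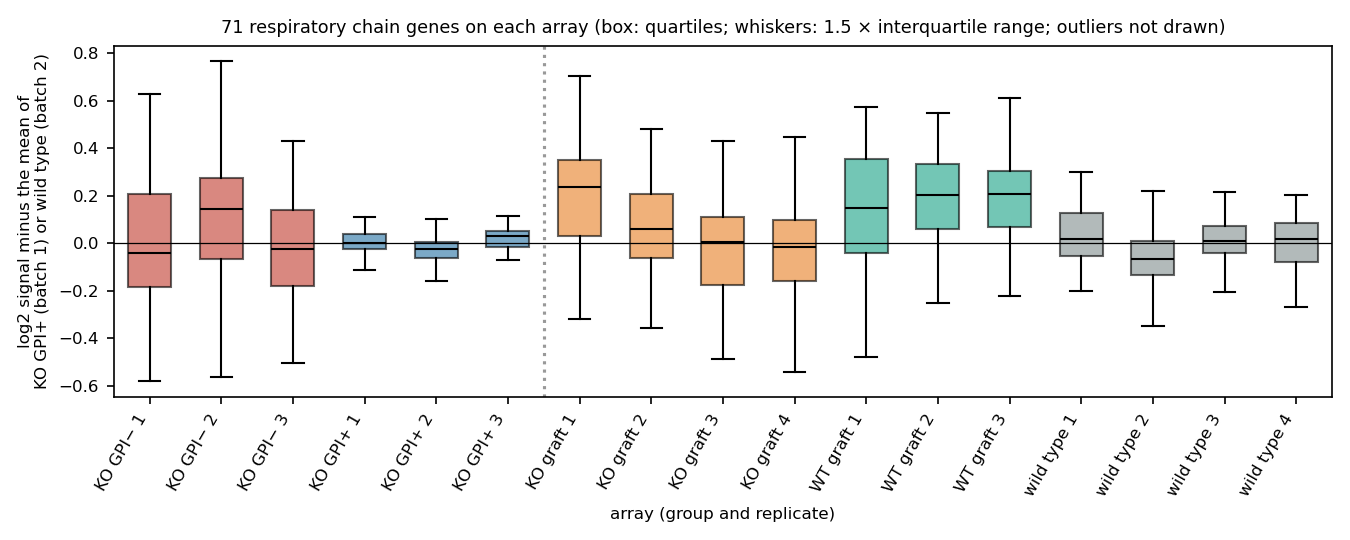
Distribution over the 71 members, on each array, of the log2 signal minus the mean of knock-out GPI-positive arrays (batch 1) or wild-type arrays (batch 2), with boxes at the quartiles, the line at the median and whiskers to 1.5 times the interquartile range. The 3 wild-type graft arrays and knock-out graft replicate 1 have the highest medians of batch 2, and the knock-out GPI-positive arrays have the narrowest boxes.

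The difference between the knock-out and the graft comparison was tested as an interaction, in which a positive value means that the GPI-negative cells stood higher in the knock-out. It called 11 members higher and 1 lower, 15.5% and 1.41% of the 71, where 9.04% of all genes were higher and 9.96% lower. The median of the members was 0.17, against 0.02 over all genes. The wild-type graft arrays enter the interaction with a positive sign, so a high level there raises it. The part of that level in these calls was not tested. The knock-out and graft differences were 0.60 and −0.29 for Ndufa5, 0.65 and −0.15 for Ndufs7, and 0.43 and −0.22 for Ndufa12. Ndufs3, Ndufs1, Ndufa10, Ndufab1, Ndufb10, Ndufb5, Ndufc2 and Uqcrc2 were the other higher members. Of the 11, 10 were under complex I, which holds 44 of the 71 tested members. They were 22.7% of those 44. For Ndufb1, the lower one, they were −0.44 and 0.16. The higher calls numbered 5 without any 1 knock-out GPI-positive array or wild-type graft replicate 2, where 6.92% to 7.4% of all genes were called higher. They numbered 14 without knock-out graft replicate 1, where 10.9% of all genes were. They numbered 7 without knock-out GPI-negative replicate 1, knock-out graft replicate 2, 3 or 4, or wild-type graft replicate 3. In those settings 7.21% to 9.66% of all genes were called higher. The calls of Ndufa5, Ndufs7, Ndufa12 and Ndufb5 held without any 1 array, while that of Ndufb1 was lost without knock-out GPI-negative replicate 2, knock-out GPI-positive replicate 1, knock-out graft replicate 3 or wild-type graft replicate 2. Of 17 members called in the knock-out or between the grafts, 1 (Cox6a2) was called in both in the same direction. With the knock-out GPI-positive arrays averaged into 1 sample, Ndufa5 alone kept its interaction call.

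Other genes of energy metabolism were measured beside the chain, and their counts in the knock-out stand against the 14.8% of all genes called higher and 14.8% lower. Of 17 ATP synthase genes, whose enzyme uses the proton gradient, 3 (17.6%) were higher in knock-out GPI-negative cells, led by Atp5g2 (0.81 ± 0.11) and Atp5md (0.72 ± 0.14). None was called between the grafts, where 3 had an unadjusted p under 0.05, all lower (17.6%, against 9.65% of all genes). In knock-out graft against wild type, 2 (11.8%) were higher, led by Atp5o (0.43), and Atp5b (5.88%) was lower (−0.32). In that comparison 6.84% of all genes were called higher and 5.55% lower. Of 27 tested assembly factors outside the Nduf names, 6 (22.2%) were higher and 1 (3.70%) lower in knock-out GPI-negative cells, led by Sco2 (1.24 ± 0.21), a copper chaperone of complex IV, and Ttc19 (0.54 ± 0.14), which acts on complex III. Of 10 coenzyme Q synthesis genes 3 (30.0%) were higher there, led by Coq2 (0.81 ± 0.13) and Coq5 (0.56 ± 0.15). Cytochrome c (Cycs) differed by 0.19 ± 0.12 without a call. Of 13 regulators of mitochondrial genes 4 (30.8%) were higher, led by Ppargc1b (0.93 ± 0.16), a coactivator of mitochondrial biogenesis, and Polrmt (0.60 ± 0.13), the mitochondrial RNA polymerase. Ppargc1b was also higher in the knock-out graft than in wild type (0.74 ± 0.14), as was Hif1a (0.53 ± 0.13). These 2 were 15.4% of the 13, against 6.84% of all genes. Of 12 genes of the tricarboxylic acid cycle, 2 (16.7%) were higher and 1 (8.33%) lower in the knock-out, led by Idh3b (0.62 ± 0.13) and Fh1 (0.40 ± 0.11). Mdh2 and Fh1 (16.7% of the 12) were higher in the wild-type graft than in wild type (0.55 ± 0.13 and 0.52 ± 0.11), against 0.449% of all genes. Most ATP synthase and tricarboxylic acid cycle genes lay on the same side of zero as the chain in the comparisons that hold the wild-type graft. Between the grafts 16 of 17 and 11 of 12 were below zero, with medians of −0.11 and −0.12. In wild-type graft against wild type 16 of 17 and 11 of 12 were above zero, with medians of 0.18 and 0.14. Both comparisons use the same wild-type graft arrays, with opposite sign. In knock-out graft against wild type, 11 of 17 and 6 of 12 were above zero, with medians of 0.05 and 0.03.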

How the data were processed

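The authors' deposited values resemble log10 intensities, with a maximum of 3.86 (batch 1) or 3.90 (batch 2). The base was read from the values, so fold changes rest on it. The sorted values of all arrays of a batch were identical, so these were quantile-normalized per batch. Per the submitters' processing notes, GCOS (version 12) was used for a step they do not name, and how probes were summarised was not stated in the sources used here. The first batch was taken to be the experiment labelled from less RNA, which the labels do not state.

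Division by log10 of 2 turned the deposited log10 values into log2 values, and arrays were centred on a common median because batch medians differed by over 0.1. Without 64 control probe sets, those reaching the 40th percentile of their array on at least 3 arrays were kept (32426). The brightest kept probe set with 1 gene symbol in the platform annotation stood for its gene (14245 genes). All 73 members matched the RefSeq table of GRCm38.p6. A single limma fit (version 3.58.1, R 4.3.3, eBayes with intensity trend) held a mean for each of the 5 groups, leaving 12 residual degrees of freedom. Contrasts lay within a batch, the interaction was a difference of 2 such contrasts, tests were two-sided, and Benjamini-Hochberg adjustment ran over all genes, with a threshold of 0.05. The fit was tested on simulated data. Members and lists were chosen with earlier results of these data known, so no list was tested. Alternatives covered normalization, centring, filters, probe set choice, moderation, array weights, a replicate block, averaged arrays, left-out arrays and a threshold of 0.01. Named with statistics were, per complex, the 3 largest non-overlapping calls, the complex I core, complex II, Uqcrfs1, Uqcrc1 and Uqcrc2, complex IV isoform sets, interaction calls and those shared by knock-out and graft comparisons. Other members named are the remaining calls and those near the threshold, chosen after their values were seen. Precision is limited by how many arrays each group has.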

Additional observations from a re-analysis of the deposited data

Results flagged for a closer look

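For 2 of 142 sets of 4 arrays (71 members in the knock-out graft and in wild type), a single array lay apart from the other 3 by more than Dixon's 95% critical value. Chance alone flags about 1 in 20 such sets. Ndufb8, an accessory subunit of complex I, was at 5.90 on wild-type replicate 2 and between 6.08 and 6.11 on the others, a gap of 0.890 of the range. Ndufv2, a core subunit, was at 6.79 on wild-type replicate 4 and between 6.54 and 6.57 on the others, a gap of 0.886 of the range.

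For 12 members the difference between GPI-negative and GPI-positive cells was not the same in knock-out marrow as between the grafts, by the interaction test (limma, adjusted p below 0.05). Given as knock-out difference minus graft difference on the log2 scale, Ndufa5 stood at 0.89 (adjusted p = 0.00274), Ndufs7 at 0.79 (adjusted p = 0.00492), Ndufa12 at 0.65 (adjusted p = 0.00402) and Ndufb5 at 0.51 (adjusted p = 0.0168). Ndufc2 and Ndufab1 stood at 0.53 each, Uqcrc2 at 0.52, Ndufs3 at 0.50, Ndufa10 at 0.48, Ndufb10 at 0.45 and Ndufs1 at 0.44, with adjusted p from 0.0185 to 0.047. Ndufb1 went the other way, at −0.60 (adjusted p = 0.0251). The calls of Ndufc2, Ndufab1, Uqcrc2 and Ndufa10 were lost with the mean of probe sets. Other kept probe sets gave 0.14, −0.13 and 0.46 for Ndufc2, and 0.68, 0.07, −0.16 and 0.04 for Ndufab1. Those of Uqcrc2 and Ndufa10 gave 0.21 and 0.07. The knock-out and the grafts were measured in different batches, so batch and experiment cannot be told apart in this test. A high level on the wild-type graft arrays also raises these values.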

How the results depend on the processing

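None of the 37 member calls reversed under any alternative, and 6 held under all of them: Cox6a2 in its 3 comparisons, Ndufa13 and Ndufa6 in knock-out graft against wild type, and Ndufa5 in the interaction. In the knock-out, higher calls were 7 without the intensity trend, 6 with a replicate block, 1 with averaged GPI-positive arrays, 6 at a threshold of 0.01, and 6 to 8 with an array left out. Lower calls there were 0 with averaged arrays, 3 at 0.01 and 3 to 5 with an array left out, and the median was 0.0569 with cyclic loess and −0.0249 to 0.0402 with an array left out. Between the grafts, higher calls were 2 with array weights. Lower calls were 0 with quantile normalization, no filter, a separate fit per batch, no trend, the replicate block, averaged arrays or 0.01, 2 with the stricter filter (60th percentile), 6 with array weights and 0 to 9 with an array left out. In knock-out graft against wild type, 3 were higher at 0.01. Lower calls were 1 with the replicate block or averaged arrays, 0 at 0.01 and 1 to 2 with an array left out. In wild-type graft against wild type, higher calls were 3 with the stricter filter, 1 with robust moderation, 11 with array weights and 0 to 1 with an array left out. Interaction calls were 7 higher without the trend or with the replicate block, 1 with averaged arrays, 3 at 0.01 and 5 to 14 with an array left out. Lower ones were 2 with the mean of probe sets, 0 with averaged arrays or at 0.01, and 0 to 3 with an array left out. The averaged setting leaves 1 sample, assumed to vary like the other groups. The other causes were not tested.

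Same-numbered arrays did not deviate together (correlations from −0.18 to 0.10), so the numbers were not taken as pairs. Signal near background limits Cox4i2, Cox7a1, Ndufa4l2 and Ndufb4.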

Other observations

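Genes of glycolysis, the cytosolic route of sugar breakdown, were called in both directions in knock-out marrow, most of them lower. Of 14 tested genes, 7 were called lower (50.0%) and 3 higher (21.4%) in GPI-negative cells (limma, Benjamini-Hochberg), where 14.8% of all genes were called in each direction, with a median of −0.38 on the log2 scale against −0.0057 over all genes. The lowest were the hexokinases Hk3 (−1.31 ± 0.15) and Hk2 (−1.05 ± 0.16), followed by Pkm, pyruvate kinase (−0.92 ± 0.14). Pdk1, a kinase that restrains pyruvate entry into mitochondria, was higher by 0.85 ± 0.15, and the phosphofructokinase Pfkp by 0.64 ± 0.11. Between the grafts no gene of the list was called lower and none had an unadjusted p under 0.05 in that direction. Slc2a1, a glucose transporter (0.64 ± 0.12), and Pfkp (0.52 ± 0.10) were higher there, 14.3% of the 14 against 3.95% of all genes. The knock-out fractions also differed in 10 of 11 neutrophil markers, which were lower in GPI-negative cells (8.15 to 8.38 against 9.38 to 9.44), and the part of this in the glycolysis genes was not tested.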
